A study of Mus musculus with 8 samples.

Results

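The genes described here encode the nuclear pore complex, the nuclear lamina and its membrane partners, and the soluble factors that carry proteins through the pore. The 46 genes were taken from a list of symbols and matched to the 54838 genes of the count table. They comprise 25 nucleoporins, 9 lamina and inner nuclear membrane genes and 12 transport factors. All 46 had enough reads to be among the 15572 genes tested.

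The libraries are RNA-seq from mouse oocytes labelled C57BL/6. Control oocytes, labelled wildtype, and oocytes labelled BAF250aGKO were each collected at the germinal vesicle stage (GV) and at metaphase II (MII), with 2 libraries in each of the 4 groups. BAF250a is the product of Arid1a, a DNA-binding subunit of the BAF chromatin remodelling complex. The series title gives the deletion as a Gdf9-cre knockout: the Gdf9 promoter drives the recombinase in oocytes from early follicle stages, so the gene is lost in the oocyte and not in the follicle cells around it. Each library was made from a pool of 5 to 10 oocytes. The labels do not say whether the libraries of a group came from separate animals, so p-values measure the spread between these libraries only. They give no age or hormone treatment, and the sources used here do not say whether the wildtype mice carried the floxed allele or the cre.

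The nuclear envelope of a fully grown oocyte encloses the large nucleus called the germinal vesicle. Nucleoporins assemble into rings that span both membranes, lamins form a meshwork under the inner membrane, and importins and exportins ferry cargo in a direction set by the small GTPase Ran. The envelope breaks down when meiosis resumes, so an MII oocyte has a spindle and no nucleus, and it is rebuilt around the pronuclei after fertilisation. Transcription is silent from the end of growth until the embryo starts its own, so messages made before GV are kept, used or destroyed during this interval. Many messages are held with a short tail in the growing oocyte. Some carry a cytoplasmic polyadenylation element near the 3′ end, through which the tail is lengthened when meiosis resumes.

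Between 19587421 and 33289150 reads per library fell in genes. Arid1a itself was at 380 and 458 CPM, read counts scaled to a common library size, in the control GV libraries and at 4.87 and 12.9 in the knockout ones. At MII the control values were 1617 and 1293 and the knockout values 33.0 and 21.7, so every library fits its genotype label. All 12 oocyte markers had reads in every group. Summed granulosa and cumulus cell markers were between 64.7 and 152 CPM (scaled by library totals) in every library, and summed blood and immune markers were between 1.12 and 58.5, the highest value coming from 1 control MII library. Mitochondrially encoded reads made up 0.105% to 0.446% of the GV libraries, 6.03% and 6.93% of the control MII libraries, and 3.03% and 4.41% of the knockout MII libraries. This share moves with stage and, at MII, with genotype, and its part in the results was not tested.

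A group of 10 of the 46 genes carries a match to the element in the last 100 bases of the annotated 3′ untranslated region, and 6 of these sites are shown, those of genes higher at MII in control oocytes whose values are given in full, so that the matches can be read. Each is a 28-base stretch of the GENCODE M21 transcript on mm10, written 5′ to 3′ on the transcript strand, with the match in capitals.
Nup35 (chr2:80658875-80658902, plus strand): caaataaactttgtcaatTTTTATgtgc
Nup37 (chr10:88178301-88178328, plus strand): aaaatccttatTTTTATatcaaacatac
Nup54 (chr5:92415540-92415567, minus strand): taaattgttaatttgtaaTTTTATgtaa
Nup62 (chr7:44830711-44830738, plus strand): agtcatgtctaTTTTATttctctgcact
Lbr (chr1:181815384-181815411, minus strand): gtgcaagttgtTTTTAATttgatgtttg
Rcc1 (chr4:132331978-132332005, minus strand): ttttgaattttTTTTAATtgtataatat
The search was for TTTTAT or TTTTAAT on the transcript strand only. A match was present in 10 of the 44 members with a long enough region (22.7%) and in 2417 of 12188 tested genes (19.8%), so the list holds the element about as often as other genes. Among the members it was present in 7 of 22 that were higher at MII in control oocytes, in 0 of 6 that were lower and in 3 of 16 that passed in neither direction. The seventh match among the higher genes was in Nup98, and the other 15 higher genes had none, among them Seh1l and Nup153. The split by direction is not given for all tested genes, so no link between the element and direction is drawn. A match is a description of the letters, not evidence that the site is used. The sources used here do not say whether the libraries were selected for poly(A), and the part of tail length in the counts was not tested.

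In control oocytes most nucleoporin messages took a larger share of the library at MII than at GV. Of the 46 members, 23 were higher at MII (50%) and 6 were lower (13%), against 21.2% higher and 27.9% lower among all 15572 tested genes (edgeR quasi-likelihood test, Benjamini-Hochberg adjusted p below 0.05). The median log2 fold change was 0.93 over the members and -0.20 over all genes. Of the 25 nucleoporins 17 were higher and 2 lower, with a median of 1.18. Of the 9 lamina and membrane genes 4 were higher and 2 lower, with a median of 1.20. Of the 12 transport factors 2 were higher and 2 lower, with a median of -0.37. CPM is a share of the reads of a library, so a message that is lost more slowly than others reads as higher, and fewer cells and less RNA per cell cannot be told apart. With library totals as the only scaling the members' counts were 18 higher and 6 lower.

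**Figure D1:**
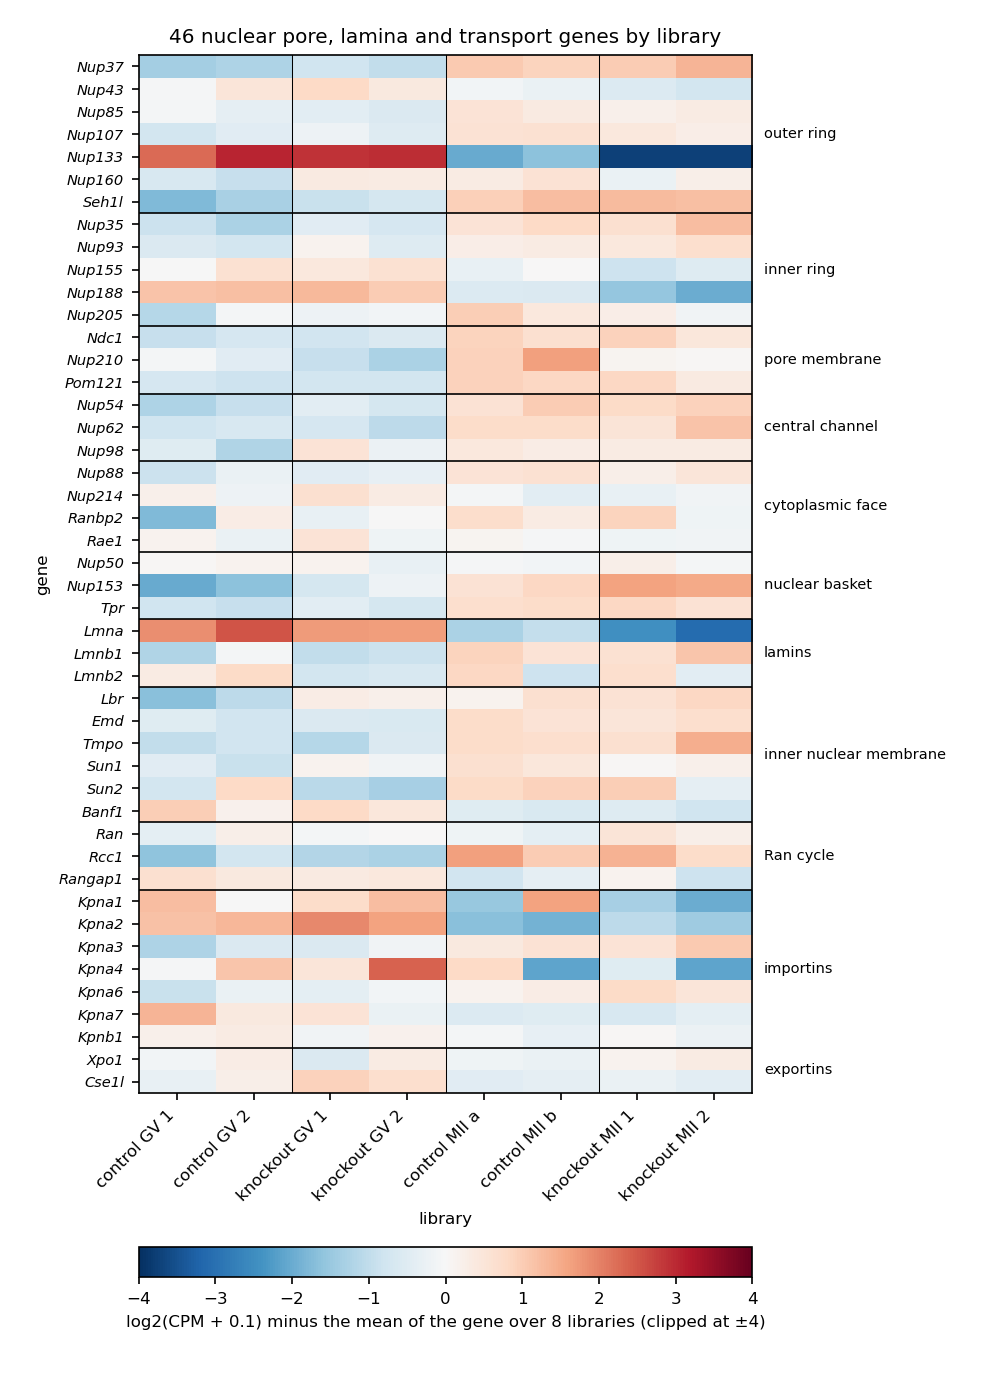
Log2(CPM + 0.1) of each of the 46 genes (rows, by role) in the 8 libraries (columns), as the difference from the mean of the gene over the 8 libraries. Red is above and blue below that mean, and most nucleoporin rows turn from blue at GV to red at MII, whereas Nup133, Nup188, Lmna, Kpna2 and Banf1 turn from red to blue.

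The outer ring, or Y complex, scaffolds both faces of the pore, and 5 of its 7 genes were higher at MII in control oocytes. Seh1l, a Y complex subunit, read 18.4 and 25.5 CPM at GV and 122 and 148 at MII, a log2 fold change of 2.62 ± 0.29 (SE; adjusted p = 7.97e-05). Nup37, another subunit, read 38.4 and 42.4 at GV and 207 and 186 at MII (2.28 ± 0.27; adjusted p = 0.000103). For both genes the 2 MII libraries lay far above the 2 GV libraries. Nup85 had the highest level per kilobase of this ring in control oocytes, and it read 173 and 142 CPM at GV and 272 and 239 at MII (0.69 ± 0.25; adjusted p = 0.0411). This call was lost whichever library was left out (adjusted p 0.0466 to 0.244 over the alternatives).

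Nup133, another subunit of the same ring, went the other way. It lies on mm10 chromosome 8, 123897123 to 123949265, minus strand. It read 6.41 and 10.9 CPM in control GV and 0.231 and 0.330 in control MII, a log2 fold change of -4.92 ± 0.75 (adjusted p = 0.000663). The MII values rest on 6 and 10 reads. A gene on the opposite strand, Gm29773, had 25 and 8 reads in control MII and 0 in the other 6 libraries. The sources used here do not give the strand setting of the counting.

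In the inner ring, which anchors the pore to the membrane, 3 of 5 genes were higher and 1 lower. Nup35, a membrane-bending nucleoporin and the most abundant member per kilobase at MII, read 279 and 210.0 CPM in control GV and 741 and 865 in control MII (1.71 ± 0.31; adjusted p = 0.00123). A near copy, Gm4353, aligns over 99.2% of the Nup35 transcript with 99.6% identity. It had 7 to 92 reads in any library, and reads shared between the copies make the value of Nup35 uncertain. Nup188, a large scaffold of this ring (chromosome 2, 30286397 to 30344266, plus strand), read 226 and 237 CPM at GV and 70.1 and 68.9 at MII. Its log2 fold change was -1.73 ± 0.27 (adjusted p = 0.000508), and the GV and MII libraries did not overlap.

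All 3 pore membrane genes and all 3 central channel genes were higher at MII in control oocytes. Ndc1, a transmembrane anchor, read 55.1 and 65.0 CPM at GV and 193 and 162 at MII (1.56 ± 0.28; adjusted p = 0.00119). Nup62, a channel protein whose phenylalanine-glycine repeats bind importins, read 194 and 217 at GV and 563 and 559 at MII (1.45 ± 0.29; adjusted p = 0.00247). Nup54, its partner in the channel, read 53.1 and 65.9 at GV and 185 and 253 at MII (1.88 ± 0.28; adjusted p = 0.000421). A processed pseudogene, Gm15790, aligns over 53.3% of the Nup54 transcript, and no library had more than 1 read there.

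At the 2 ends of the pore the picture was mixed. Of the 4 cytoplasmic face genes 1 was higher, and Rae1, an mRNA export factor, read 284 and 212 CPM at GV and 274 and 245 at MII (log2 fold change 0.07 ± 0.30; adjusted p = 0.875), a value that was -0.07 with library totals as scaling and with DESeq2. In the nuclear basket Nup153, which docks import complexes and binds lamins, read 13.0 and 16.9 at GV and 78.0 and 93.2 at MII (2.52 ± 0.30; adjusted p = 0.000128). Nup50, a basket partner of importin alpha, read 128 and 137 at GV and 119 and 116 at MII (-0.18 ± 0.26; adjusted p = 0.606). Tpr, the filament protein of the basket, was among the genes higher in both genotypes, and its neighbour on the opposite strand, Odr4, had 462 and 765 reads in control MII and 0 in both knockout MII libraries.

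The 3 lamins did not move together. Lmna, which encodes the A-type lamins (chromosome 3, 88480147 to 88509956, minus strand), read 91.0 and 141 CPM in control GV and 10.3 and 12.7 in control MII, a log2 fold change of -3.34 ± 0.36 (adjusted p = 6.63e-05). Lmnb1, a B-type lamin, read 3.30 and 7.33 at GV and 14.5 and 11.4 at MII (1.28 ± 0.53; adjusted p = 0.066). Lmnb2, the other B-type lamin, read 6.59 and 8.97 at GV and 9.39 and 2.87 at MII (-0.35 ± 0.68; adjusted p = 0.702). The stages overlapped. Per kilobase of exon, the control GV level was 19.9 CPM for Lmna, 1.79 for Lmnb1 and 1.82 for Lmnb2. At MII it was 1.97 for Lmna, 4.37 for Lmnb1 and 1.43 for Lmnb2.

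Among the inner membrane genes Lbr, a lamin B receptor that also acts in sterol synthesis, read 6.22 and 9.76 CPM at GV and 22.3 and 31.6 at MII (1.75 ± 0.38; adjusted p = 0.00353). Dnah14 overlaps Lbr on the opposite strand and went from 60 and 50 reads to 491 and 983. Tmpo, which encodes LAP2 proteins of the lamina, read 22.5 and 25.98 CPM at GV and 74.0 and 70.4 at MII (1.57 ± 0.35; adjusted p = 0.004). Banf1, which encodes the barrier-to-autointegration factor that links chromatin to the re-forming envelope, read 260 and 148 at GV and 93.8 and 87.3 at MII (-1.17 ± 0.31; adjusted p = 0.0114). The call was lost without control GV 1, control MII a or control MII b (adjusted p up to 0.112). Eif1ad overlaps Banf1 on the opposite strand and went from 332 and 634 reads to 102 and 116.

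Ran carries the directional signal of transport, Rcc1 charges it with GTP on chromatin and Rangap1 triggers hydrolysis in the cytoplasm. Rcc1 read 5.43 and 10.1 CPM in control GV and 52.7 and 34.0 in control MII (2.48 ± 0.44; adjusted p = 0.00118). Ran read 40.8 and 62.1 at GV and 47.6 and 40.8 at MII (-0.22 ± 0.30; adjusted p = 0.566). Rangap1 read 21.4 and 17.8 at GV and 8.0 and 10.5 at MII (-1.08 ± 0.44; adjusted p = 0.0633). The Rangap1 stages did not overlap, but the difference missed the threshold, and Zc3h7b on the opposite strand went from 305 and 273 reads to 1131 and 1286.

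The importin alpha family, whose members recognise the nuclear localisation signal of cargo, split in level and in direction. Kpna7, the oocyte and early embryo form, and Kpna2 had the highest levels per kilobase of all 46 members in control GV, at 315 and 225 CPM per kilobase. Kpna2 (chromosome 11, 106988629 to 106999541, minus strand) read 612 and 684 CPM in control GV and 84.6 and 73.6 in control MII (-3.03 ± 0.29; adjusted p = 4.09e-05). It has 5 near copies, and the longest, Gm10184, aligns over 95.8% of the transcript with 99.9% identity, so its level is uncertain. Gm10184 had 244 and 404 reads in control GV and 21 in each control MII library.

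Kpna7 (chromosome 5, 144983519 to 145084030, minus strand) read 1312 and 665 CPM in control GV and 349 and 365 in control MII (-1.47 ± 0.38; adjusted p = 0.00946). The call was lost without control GV 1 or control MII a (adjusted p up to 0.0902). The 2 control GV libraries differed from each other by about as much as the 2 stage means did, and Arpc1a on the opposite strand went from 596 and 983 reads to 84 and 86. Kpna3 read 38.4 and 61.5 at GV and 119 and 136 at MII (1.35 ± 0.32; adjusted p = 0.00619), and without control GV 1 its adjusted p was 0.0593. Kpna6 read 20.5 and 32.1 at GV and 42.1 and 47.4 at MII (0.77 ± 0.32; adjusted p = 0.0708). Kpna1 and Kpna4 had the lowest levels of the 46 members, at 0.0665 and 0.0650 CPM per kilobase in control GV. Per kilobase in control MII the order of the family was Kpna7 at 114, Kpna3 at 29.7, Kpna2 at 27.5 and Kpna6 at 6.65, and the neighbours Kpna3 and Kpna2 lay closest. Of the export side, Xpo1, the receptor for leucine-rich export signals, read 30.5 and 40.9 CPM at GV and 29.4 and 27.6 at MII (-0.32 ± 0.36; adjusted p = 0.483).

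**Figure D2:**
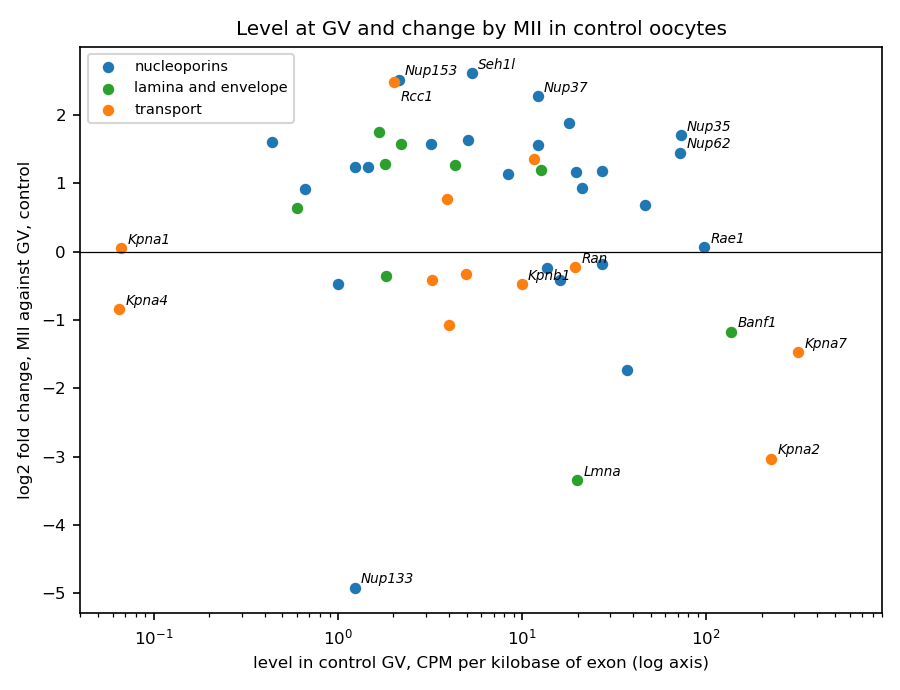
Level in control GV (x axis, CPM per kilobase of exon, log axis) against the log2 fold change from GV to MII in control oocytes (y axis), 1 point per gene. Kpna7, Kpna2 and Banf1, with the highest levels at GV, are lower at MII, while genes from 0.438 to 72.7 CPM per kilobase are among those that are higher.

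Knockout oocytes showed much of the same change from GV to MII. Of the 46 members 18 were higher at MII (39.1%) and 7 lower (15.2%), against 19.9% higher and 29.1% lower among all tested genes. The median was 0.53 over the members and -0.33 over all genes. The nucleoporins counted 12 higher and 3 lower of 25, with a median of 0.70, the lamina and membrane genes 3 higher and 2 lower of 9, and the transport factors 3 higher and 2 lower of 12.

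The 2 genotypes share no library, and 39 of the 46 members had the same sign in both. Those higher in both numbered 16, which is 16 of the 23 in control and 16 of the 18 in knockout: Seh1l, Nup37, Nup85, Nup107, Nup35, Ndc1, Pom121, Nup54, Nup62, Nup88, Nup153, Tpr, Emd, Tmpo, Rcc1 and Kpna3. The knockout call of Nup107 (adjusted p = 0.0443) was lost whichever of the 8 libraries was left out and in 5 of 7 other alternatives, and that of Nup88 (adjusted p = 0.0488) in 6 of 8 and 6 of 7. The knockout and the control call of Emd were each lost in 3 of 8. The 5 lower in both were Nup133, Nup188, Lmna, Banf1 and Kpna2. Nup160, Nup93, Nup205, Nup210, Nup98, Lbr and Sun1 passed as higher in control and not in knockout, and Kpna6 and Lmnb1 in knockout and not in control. Kpna7 passed as lower in control and not in knockout, and Nup43 and Cse1l in knockout and not in control. The other 13 passed in neither. These shares are not given for all tested genes, so the agreement between genotypes is not shown to be particular to the members. Passing in 1 genotype and not in the other does not show that the genotypes differ, and the difference itself was tested separately.

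**Figure D3:**
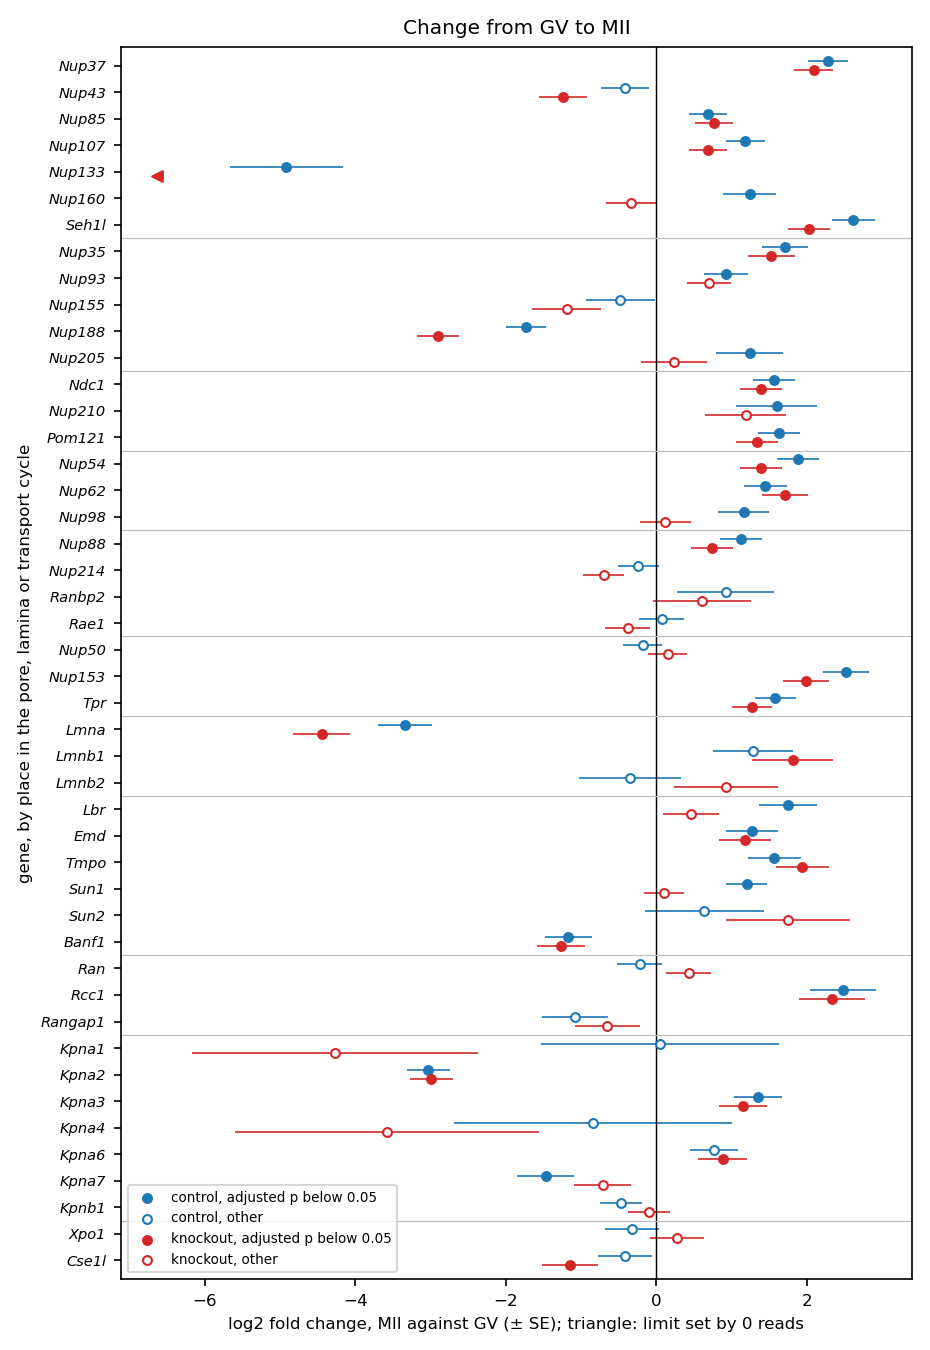
Log2 fold change from GV to MII (x axis, ± SE) of each gene (y axis) in control (blue) and knockout (red) oocytes, with filled points where the adjusted p was below 0.05. Most pairs of points lie on the same side of 0, and the triangle for Nup133 marks the limit set by 0 reads in both knockout MII libraries.

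Values in knockout oocytes for the genes that moved furthest were as follows. Rcc1 read 7.48 and 6.90 CPM at GV and 44.4 and 28.01 at MII (2.33 ± 0.44; adjusted p = 0.0016). Seh1l read 34.2 and 38.6 at GV and 150.5 and 146 at MII (2.03 ± 0.28; adjusted p = 0.000267). Nup37 read 57.2 and 50.4 at GV and 203 and 254 at MII (2.09 ± 0.26; adjusted p = 0.00015). In each of these the lower MII library lay above the higher GV library by more than the spread within a stage.

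Nup153 read 32.4 and 46.1 CPM in knockout GV and 161 and 151 in knockout MII (1.99 ± 0.30; adjusted p = 0.000404). Tmpo read 19.99 and 29.6 at GV and 68.9 and 122 at MII (1.94 ± 0.35; adjusted p = 0.00123). Lmnb1 read 3.85 and 4.25 at GV and 11.8 and 16.7 at MII (1.81 ± 0.54; adjusted p = 0.0179). The Lmnb1 call was lost without knockout GV 1, knockout GV 2 or knockout MII 2 (adjusted p up to 0.115).

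Nup133 had 0 reads in both knockout MII libraries against 9.91 and 10.3 CPM in knockout GV, so it was at least 99.7-fold lower, with a floor of 3 counts per library. Lmna read 81.1 and 79.4 CPM at GV and 4.44 and 2.87 at MII (-4.45 ± 0.38; adjusted p = 1.53e-05). Kpna2 read 1029 and 829 at GV and 133 and 101 at MII (-2.99 ± 0.29; adjusted p = 3.28e-05). All 3 were lower in both genotypes.

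Nup188 read 252 and 206 CPM in knockout GV and 35.0 and 26.1 in knockout MII (-2.90 ± 0.28; adjusted p = 3.1e-05). Banf1 read 229 and 181 at GV and 93.1 and 76.8 at MII (-1.27 ± 0.32; adjusted p = 0.00744). Nup43, a Y complex subunit, read 60.3 and 44.9 at GV and 23.7 and 20.8 at MII (-1.24 ± 0.32; adjusted p = 0.00993). In control oocytes the Nup43 change was -0.42 ± 0.32. Without knockout MII 2 the calls of Nup43 and Banf1 were lost, and that of Nup43 also without knockout GV 1 (adjusted p up to 0.0793 for Nup43 and 0.058 for Banf1).

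The remaining transport genes in knockout oocytes were less far apart. Kpna7 read 739 and 424 CPM at GV and 325 and 385 at MII (-0.71 ± 0.38; adjusted p = 0.139). Kpna3 read 61.3 and 81.7 at GV and 132 and 186 at MII (1.15 ± 0.32; adjusted p = 0.0132). Kpna6 read 29.2 and 35.7 at GV and 65.4 and 54.0 at MII (0.88 ± 0.32; adjusted p = 0.043). The Kpna3 call was lost without knockout GV 1 or knockout MII 2, and that of Kpna6 without any 1 of 6 libraries (adjusted p up to 0.11 and 0.245). Cse1l, the exportin that returns importin alpha to the cytoplasm, read 32.1 and 27.1 at GV and 14.03 and 12.7 at MII (-1.15 ± 0.37; adjusted p = 0.0252), and this call was lost without knockout GV 1, knockout GV 2 or knockout MII 2, and with library totals as scaling (up to 0.136). Ran read 50.2 and 53.7 at GV and 76.5 and 63.1 at MII (0.43 ± 0.30; adjusted p = 0.256). Rangap1 read 17.3 and 18.3 at GV and 15.1 and 7.70 at MII (-0.65 ± 0.43; adjusted p = 0.238). Ran and its activating protein thus passed in neither genotype. Xpo1 read 22.0 and 41.8 at GV and 36.2 and 41.6 at MII. Kpna1 stayed below 1 CPM in all knockout libraries, and Kpna4 was above it only in 1 knockout GV library, at 2.15.

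The other pore and lamina genes described above read as follows in knockout oocytes. Nup35 read 366 and 317 CPM at GV and 784 and 1185 at MII (1.53 ± 0.31; adjusted p = 0.00226). Nup62 read 209 and 163 at GV and 483 and 738 at MII (1.71 ± 0.30; adjusted p = 0.000939). Nup85 read 136 and 123 at GV and 213 and 230.3 at MII (0.77 ± 0.25; adjusted p = 0.0265), a call lost when any 1 of 6 libraries was left out, with no filter and with DESeq2 (0.0228 to 0.131). The 3 were higher at MII, as in control oocytes. Ndc1 read 60.7 and 68.7 at GV and 198 and 141 at MII (1.39 ± 0.28; adjusted p = 0.00228), and Nup54 read 92.0 and 76.3 at GV and 209 and 233 at MII (1.39 ± 0.28; adjusted p = 0.00218). Rae1 read 376 and 225 at GV and 229 and 234 at MII (-0.38 ± 0.30; adjusted p = 0.324), and Nup50 read 135 and 101 at GV and 145 and 117 at MII (0.15 ± 0.26; adjusted p = 0.655). Lbr read 24.6 and 23.2 at GV and 30.2 and 35.8 at MII (0.46 ± 0.37; adjusted p = 0.312), and Lmnb2 read 3.12 and 3.35 at GV and 8.43 and 3.89 at MII (0.93 ± 0.69; adjusted p = 0.285). The 2 GV libraries of Lbr in knockout were already near the MII level of control oocytes, and no test of that pair was made.

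**Figure D4:**
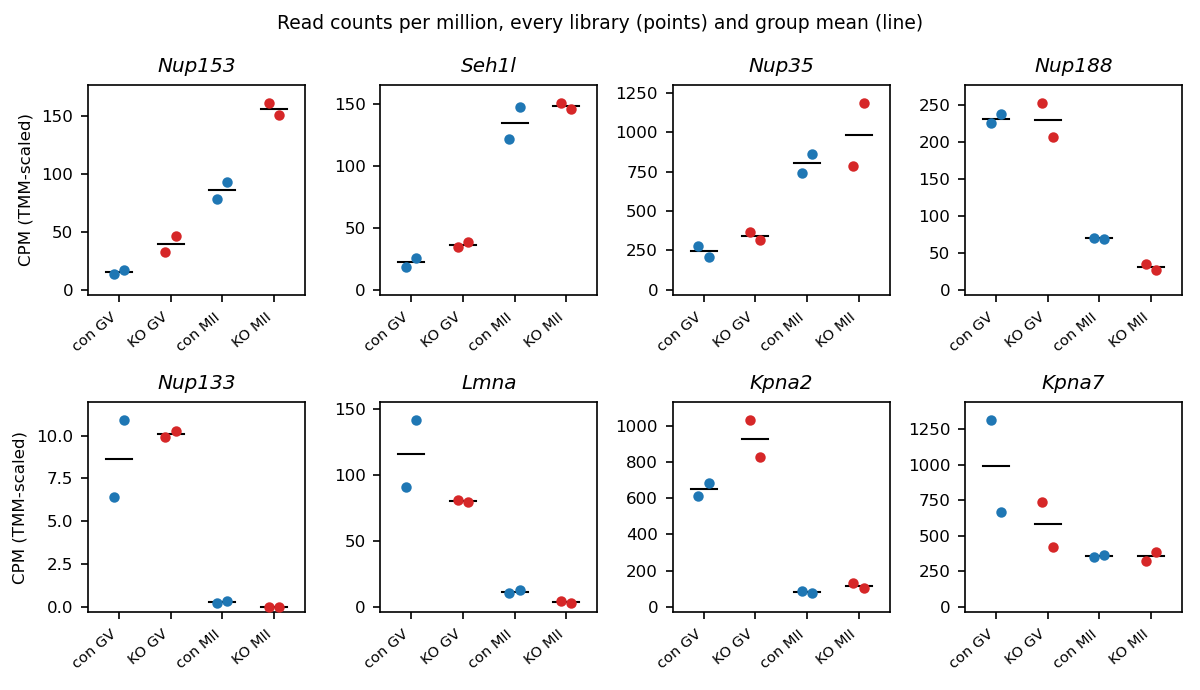
CPM of 8 members in every library (points, blue control and red knockout) with the group mean (line), on linear axes starting at 0. Nup153, Seh1l and Nup35 are higher at MII in both genotypes, and Nup188, Nup133, Lmna, Kpna2 and Kpna7 have lower group means there, with Kpna7 varying most between its control GV libraries.

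At GV no member passed the test between knockout and control. The count was 0 of 46 by edgeR, against 0.989% of all genes, with 6 members at an unadjusted p below 0.05, and DESeq2 called 2 (Nup153 and Lbr, both higher). The shares of all genes at an unadjusted p below 0.05 or called by DESeq2 are not given here, so neither count is read as an excess. The median log2 fold change was 0.23 over the members, with 32 positive and 14 negative, but with library totals as the only scaling it was -0.08, where that of all genes was -0.27. The sign of the members' median thus changed with scaling. Their median minus that of all genes was 0.23, and it was 0.19 with library totals and 0.21 with DESeq2. Whether the list as a whole differs from other genes was not tested.

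The summed granulosa and cumulus cell markers were 126 to 152 CPM in the control GV libraries and 64.7 to 83 in those of the knockout, with 3 and 2 of 16 markers at 0. Cyp19a1, Nr5a2 and Inha held most of each sum. Inha read 72.2 and 21.7 in control and 7.63 and 12.7 in knockout, and Nr5a2 45.6 and 53 against 35.3 and 48.9. Some markers with few reads were higher in knockout, such as Fshr, at 0.287 and 0.306 against 1.59 and 0.357. The summed blood and immune markers were 1.12 to 3.87 and 1.63 to 2.28, with 6 and 5 of 12 at 0. Their part in the values at GV was not tested. The 3 largest differences at GV were those of Lbr, Sun2 and Nup153. Lbr read 6.22 and 9.76 CPM in the control libraries and 24.6 and 23.2 in the knockout libraries (1.58 ± 0.38; adjusted p = 0.101). The groups did not overlap, and its adjusted p was 0.029 with no filter on low counts and 0.00972 with DESeq2, in a range of 0.00972 to 0.492 over all alternatives. Nup153 read 13.0 and 16.9 in control and 32.4 and 46.1 in knockout (1.39 ± 0.30; adjusted p = 0.0633), and its adjusted p was 0.00676 with no filter and 0.00615 with DESeq2, in a range of 0.00615 to 0.365. Sun2, an inner membrane protein of the bridge to the cytoskeleton, read 1.63 and 4.86 in control and 1.25 and 1.03 in knockout (-1.51 ± 0.81; adjusted p = 0.586).

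At MII 3 members were lower in knockout than in control and 0 were higher, of 46, against 3.44% lower and 1.7% higher among all genes. A count this small beside that background is not a result about the list as a whole. The median was -0.02. Among the remaining 43 members the largest difference was that of Kpna1, with 1 and 34 reads in the control libraries against 2 and 0, for which no fold is given.

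Lmna read 10.3 and 12.7 CPM in the control libraries and 4.44 and 2.87 in the knockout libraries, a log2 fold change of -1.65 ± 0.34 (adjusted p = 0.0249). Nup188 read 70.1 and 68.9 in control and 35.0 and 26.1 in knockout (-1.18 ± 0.27; adjusted p = 0.0326). Nup133 had 6 and 10 reads in the control libraries and none in those of the knockout (adjusted p = 0.0326), which makes it at least 2.77-fold lower. Gm29773 on the opposite strand had 25 and 8 reads in the control MII libraries and 0 in both knockout ones. With the strand setting not given, the Nup133 value at MII is uncertain. The libraries of the 2 genotypes did not overlap for Lmna, Nup188 or Nup133, nor for several members that did not pass, such as Nup43, Nup85 and Xpo1. The share of all genes without overlap is not given here, so this separation is not read as support for the calls. The call was lost for Lmna in 3, for Nup133 in 7 and for Nup188 in 7 of the 8 cases in which 1 library was left out, so no single call held in all 8. With only the 4 MII libraries in the fit the adjusted p was 0.147 for Lmna and 0.0571 for Nup188, and Nup133 had too few reads to be tested. Over all alternatives the adjusted p ranged from 0.000917 to 0.147 for Lmna, from 0.00661 to 0.187 for Nup188 and from 0.00379 to 0.0756 for Nup133. The summed granulosa and cumulus cell markers were 132 to 147 in the control MII libraries and 102 to 117 in those of the knockout, on the scale given above, with 2 and 6 of 16 markers at 0. Cyp19a1 and Nr5a2 held most of each sum, so the sums say little about the others. Cyp19a1 read 87.5 and 74.8 in control and 63.4 and 57 in knockout, and Nr5a2 21.7 and 31.6 against 39.6 and 41.1. Inha read 23.4 and 8.57 in control and 2.76 and 0 in knockout, whereas Kitl read 0.461 and 1.78 against 7.6 and 2.67. The summed blood and immune markers were 13.8 to 58.5 and 3.67 to 3.79, with 6 and 9 of 12 at 0. Their part in these differences was not tested.

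**Figure D5:**
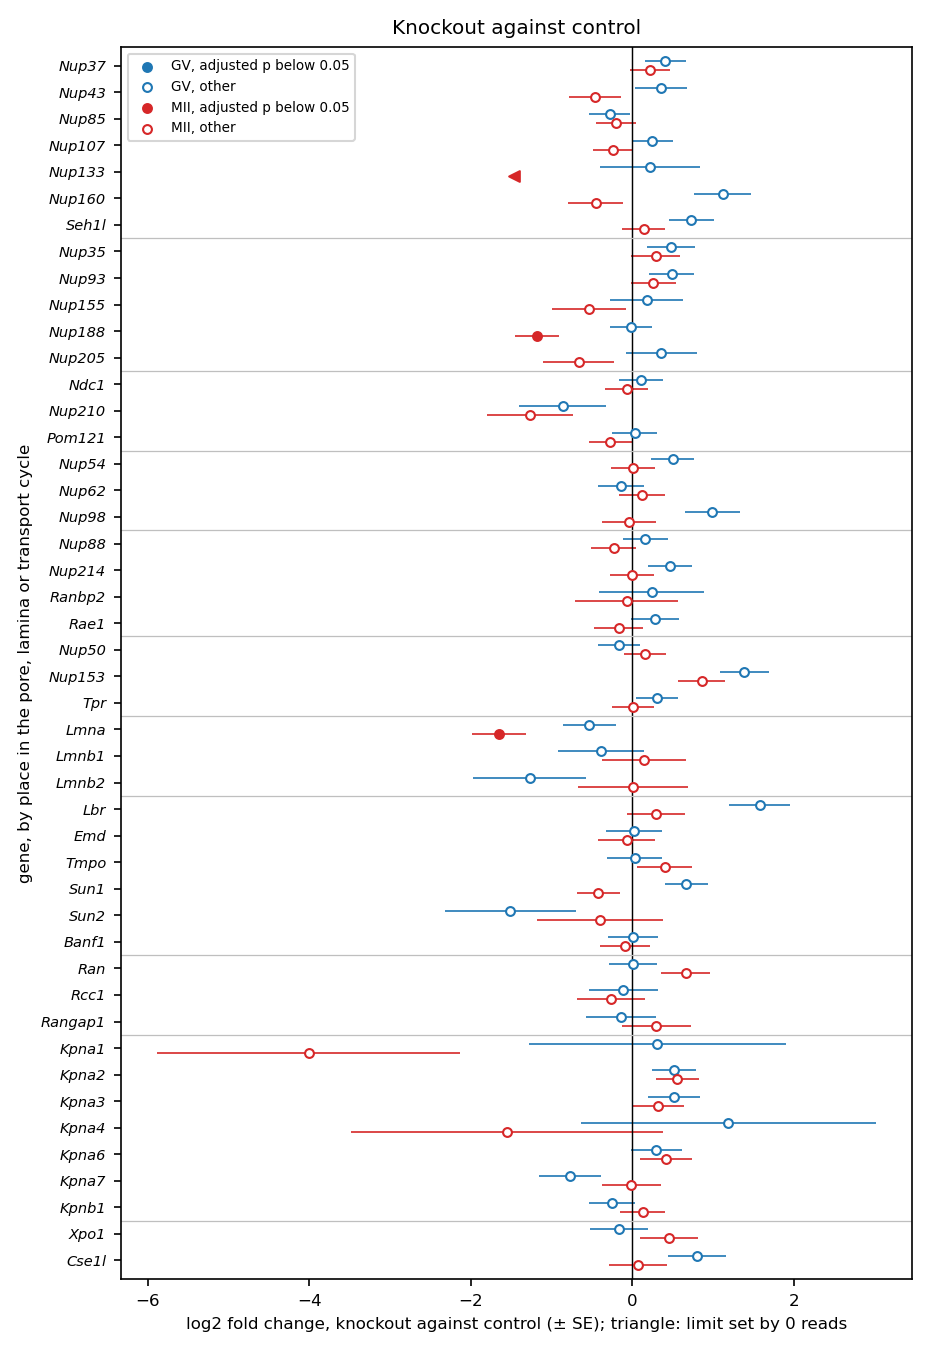
Log2 fold change of knockout against control (x axis, ± SE) for each gene (y axis) at GV (blue) and MII (red), with filled points where the adjusted p was below 0.05. Nup188 and Lmna at MII are the filled circles, and the triangle for Nup133 at MII is a limit set by 0 reads.

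The knockout effect at MII minus that at GV compares the 2 maturation changes directly. No member passed, which is 0 of 46 by edgeR against 0.0835% of all genes, with 6 members at an unadjusted p below 0.05. The share of all genes at that unadjusted p is not given here. DESeq2 called 1, Nup133. The values ranged from -6.09 ± 1.43 for Nup133, which rests on 0 reads, to 1.28 ± 0.97 for Lmnb2. For nucleoporins the difference was negative in 22 of 25 with a median of -0.44, where the median of all genes was itself -0.14. With library totals as the only scaling it was negative in 18 of 25. With that scaling the median was -0.19, against 0.07 for all genes. The share of all genes with a negative difference is not given here, so these counts are not read as a trait of nucleoporins. Lbr had a difference of -1.29 ± 0.52 (adjusted p = 0.388), Nup160 of -1.56 ± 0.49 (adjusted p = 0.259) and Sun1 of -1.10 ± 0.38 (adjusted p = 0.313). Nup188 had a difference of -1.17 ± 0.37 (adjusted p = 0.267) and Lmna of -1.11 ± 0.47 (adjusted p = 0.404). With Nup133 these are the 6 members with an unadjusted p below 0.05, and they were chosen after their values were seen. A p that misses the threshold does not show that the changes are alike.

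Other genes of the pore, envelope and transport cycle were counted from a list of 56, of which 45 were tested. In control oocytes 11 were higher (24.4%) and 12 lower (26.7%) at MII, close to the 21.2% and 27.9% of all genes. In knockout oocytes 10 were higher (22.2%) and 17 lower (37.8%), against 19.9% and 29.1%. Tnpo1, a transportin, read 54.5 and 63.8 CPM in control GV and 326 and 260 in control MII (2.31 ± 0.31; adjusted p = 0.000221). Snupn, the snurportin that imports spliceosomal particles, read 149 and 133 at GV and 2.85 and 2.05 at MII (-5.85 ± 0.44; adjusted p = 1.57e-05). Xpot, the tRNA exportin, had 14 and 66 reads in control GV and 0 in all 4 MII libraries, which makes it at least 15.9-fold lower in control and at least 9.35-fold lower in knockout.

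In that list Ahctf1, the pore seeding factor ELYS, was 1.9 higher on the log2 scale in control and 1.5 in knockout, and Tor1aip1 was 1.80 and 2.15. Ddx19b, a helicase of mRNA export, was 1.63 higher in control and 1.82 in knockout. Syne3, a nesprin, read 64.6 and 71.4 CPM in control GV and 3.65 and 0 in control MII. At GV 0 of 45 passed between genotypes by edgeR and 0 by DESeq2, against 0.989% of all genes by edgeR. Of the 45, 8 had an unadjusted p below 0.05, and the share of all genes at that level is not given here.

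At MII 1 of the 45 was higher (2.22%) and 3 were lower (6.67%) in knockout, against 1.7% and 3.44% of all genes, so the counts say nothing about the list as a whole. Ipo9, an import receptor, read 1.31 and 3.63 CPM in control and 14.98 and 12.8 in knockout (2.48 ± 0.58; adjusted p = 0.0378). Xpo5, the exporter of microRNA precursors, read 6.42 and 9.45 in control and 2.77 and 2.15 in knockout (-1.69 ± 0.35; adjusted p = 0.0246). Lemd2, an inner membrane protein, had 18 and 102 reads in the control libraries against 2 and 0, with an adjusted p of 0.0273. Icmt, which methylates prenylated proteins such as B-type lamins, read 234 and 153 CPM in control and 93.2 and 80.4 in knockout (-1.15 ± 0.28; adjusted p = 0.0452). At GV it read 117 and 135 in control and 71.5 and 79.9 in knockout. Icmt starts at 152297227 on chromosome 4, which also holds the targeted gene Arid1a, with its start at 133679008. The part of this shared chromosome was not tested.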

How the data were processed

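Gene read counts of 8 oocyte libraries were deposited by the authors as 1 table of raw counts per Ensembl gene. The submitters' processing notes name Bowtie2, HTSeq, edgeR and the build mm10. The sources used here do not give their versions, the annotation or the strand setting. The 5 summary rows of HTSeq held 22% to 35.1% of the reads of each library and were left out of library sizes and tests. Both control MII columns carry the same heading, so they are 2 unnumbered libraries of that group, called a and b, and 0 value columns were left unused. Symbols, lengths and positions came from GENCODE M21, which names 54809 of the 54838 genes, and RefSeq synonyms named 2 more listed genes.

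Counts were filtered with filterByExpr, scaled by TMM and tested with the edgeR 4.0.16 quasi-likelihood test (R 4.3.3). One fit over all 4 groups gave each contrast, with Benjamini-Hochberg adjustment over 15572 genes, a threshold of 0.05, 4 residual degrees of freedom and 6.3 prior ones. SE is the absolute log2 fold change over the square root of F. CPM is TMM-scaled. Marker sums are CPM scaled by library totals, and levels per kilobase divide CPM by exon length. The SE takes in the spread between these libraries as estimated by the fit, whereas the floor of 3 counts covers counting error only. Near copies were found with blastn (at least 200 bases at 95% identity). The replicate libraries correlated at r = 0.926 to 0.962 over log2 CPM across genes and differed by more than sampling noise, so none was merged. The fit was tested on simulated data, first with 1 dispersion for all genes and, after that gave few calls, with gene-wise dispersions estimated from these libraries. In both it found few changes of 2-fold and most of the largest ones, all with the right sign, and with gene-wise dispersions the share of false calls for maturation in control was somewhat above the threshold.

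The members and lists were chosen with earlier results of these data known. Values in each library of the contrast concerned are given for members past the threshold (up to 6 a direction by size in each maturation contrast). They are also given for the lamins, the Ran cycle genes and the importin alphas except Kpna1 and Kpna4, which are given in part. The same holds for the member with the highest level per kilobase in each role group and the 3 largest differences in each knockout contrast. Of the other listed genes up to 3 a direction are named per contrast. The alternatives were library totals as scaling, no filter on low counts, a mean of at least 5 CPM, a fit of only the 4 libraries compared, DESeq2 1.42.0, a replicate block, and leaving out each library in turn.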

Additional observations from a re-analysis of the deposited data

How the results depend on the processing

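No member or other listed gene that passed a test turned direction in any alternative run. Some values that did not pass did so near 0, such as Rae1 in control, from 0.07 to -0.07 with library totals and with DESeq2. The median of the 46 members at GV went from 0.23 to -0.08 with library totals. Genes with few reads turned by far more. Between genotypes at MII, Kpna4 went from -1.55 to 4.53 without control MII a, and Ipo7 from 0.56 to -2.58 without knockout MII 1. At GV the count of members that differed between knockout and control was 0, and it was 2 with no filter on low counts, 2 with only the 4 GV libraries in the fit and 2 with DESeq2, in each case Lbr and Nup153, both higher. It was 0 whichever library was left out. At MII the count was 3, it was 0 with only the 4 MII libraries, and it ranged from 0 to 2 when 1 library was left out: 0 without knockout GV 1, control MII b or knockout MII 2, 1 without control GV 1, control GV 2 or knockout MII 1, and 2 otherwise. From GV to MII the count was 29 in control oocytes and 19 to 29 with 1 library left out (19 without control GV 1), and 25 in knockout oocytes and 16 to 24 (16 without knockout MII 2). Of these calls 18 of 29 in control and 15 of 25 in knockout held in every alternative that tested the gene and whichever library was left out. The count for the knockout effect at MII minus that at GV was 0, and 1 with no filter and 1 with DESeq2, both times Nup133.

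Scaling by library totals moved the median log2 fold change of all genes at GV from 0.00 to -0.27 and that of maturation in control from -0.20 to -0.36. DESeq2 moved the latter to -0.39.

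The replicate block used the 6 numbered libraries, since both control MII columns lack a number. Deviations of libraries numbered alike correlated at 0.119, 0.0127 and -0.02. With 2 libraries a group this cannot tell whether such libraries share more than a number, and the labels do not say. With the block 0 members differed at GV and 23 changed from GV to MII in knockout, against 0 and 25 in the same libraries without it. No paired analysis was possible for contrasts with control MII because its columns carry no number.

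The number of libraries, 2 a group, limits the precision of every value, and Nup133 in control MII rests on 6 and 10 reads.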
